A study of Danio rerio with 6 samples.

Results

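The alternative 5' splice site events of zebrafish embryos were the 652 entries of the authors' deposited sheet for this event type, out of 3216 events on the 4 sheets used for alternative 5' splice sites, mutually exclusive exons, retained introns and skipped exons. All 652 were taken, whatever their values. They lie in 567 genes, of which 504 hold 1 event and 63 hold more. The sheet is itself a selection on the comparison described here, because its FDR (false discovery rate) stays under 0.05 in every entry of the authors' deposited table. The sizes and directions of the changes are therefore a description and were not tested again.

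Whole embryos of the AB strain were sequenced 33 hours after fertilization, 3 libraries of wild-type embryos as the control and 3 of rbm24a-/- embryos. The mutants carry an 8 bp deletion made with TALENs, which are site-specific nucleases, and the labels place it in another exon for each mutant library, so the exon is not stated here. The series title names the build-up of lens crystallins and the transparency of the lens. A whole embryo mixes all tissues, so fewer cells of a type and less RNA per cell cannot be told apart, and a splice site level is an average over every tissue that expresses the gene.

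The 5' splice site, or donor site, is where an intron begins. The U1 small nuclear ribonucleoprotein pairs with it first, and the U6 and U5 particles then take it over before the intron is cut. When 2 donor sites compete, the upstream one gives a short exon and the downstream one a long exon, and RNA-binding proteins such as the SR proteins and hnRNPs are known to shift the balance. RBM24, the mammalian counterpart of the protein encoded by rbm24a, is known as a splicing regulator of heart and skeletal muscle that binds GU-rich RNA. A segment whose length is a multiple of 3 leaves the reading frame as it is when it lies in coding sequence, and other lengths shift it. Whether a segment is coding or untranslated was not analysed here.

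Total gene counts were between 13242789 and 16043155 per library, over 31624 genes. No replicates of a group agreed within counting noise, since the chi-square per gene ranged from 3.5 to 21.8. Mutant replicate 2 lay apart from the other 5 libraries, at -43.46, on the next principal component after the one that separates the groups. Wild-type replicate 2 was shifted the same way by less, at -15.57, against 11.12 and 10.03 for wild-type replicates 1 and 3. The mutated gene rbm24a had 4.73, 5.52 and 4.49 FPKM in wild-type replicates 1 to 3 and 6.27, 11.34 and 7 FPKM in mutant replicates 1 to 3. Its counts were higher in the mutants, with a log2 fold change of 0.77 ± 0.16 (SE) and an adjusted p of 0.00571 by edgeR with Benjamini-Hochberg adjustment over 16489 genes. A count per gene does not show whether a library carries so short a deletion. All 10 genes chosen to mark tissues of the whole embryo were detected in all 6 libraries.

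The distance between the competing sites is the length of the alternative segment. It ran from 1 to 2487 bases, with a median of 26. The commonest distance was 6 bases, with 44 events, followed by 4 bases with 39, 9 bases with 31, 12 bases with 29 and 5 bases with 26. Sites 4 bases apart are the usual tandem donors, in which both sites overlap within 1 stretch of sequence. Beyond 5 bases the multiples of 3 stood out at most short distances, with 44 events at 6 bases against 4 at 7 bases and 10 at 8 bases.

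Distances that are a multiple of 3 made up 320 of the 652 events (49.1%). Of events with sites up to 30 bases apart they made up 53.8% (190 of 353), and of events with sites farther apart 43.5% (130 of 299). Among events with at least 20 reads in every library these shares were 55.4% (46 of 83) and 47.6% (40 of 84), and with at least 50 reads in every library 65.1% (28 of 43) and 52.2% (24 of 46). In each of these read classes the share was higher at the short distances.

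**Figure D1:**
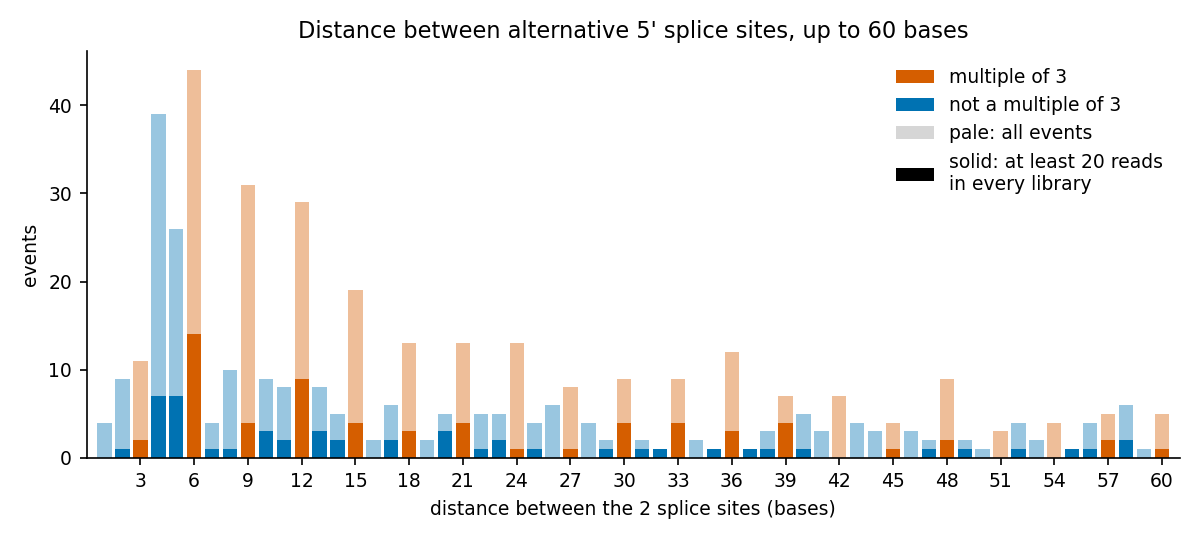
Number of events (vertical axis) at each distance between the competing 5' splice sites in bases (horizontal axis), for distances up to 60 bases. Orange bars are multiples of 3 and blue bars are not; the pale bar is all events and the solid bar in front of it the events with at least 20 reads in every library. The bars at 6 bases (44 events), 4 bases (39) and 9 bases (31) are the highest.

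Each event has a level, the fraction of its length-corrected reads that use the downstream site, for each of the 6 libraries. Reads at the downstream site are the deposited inclusion reads and those at the upstream site the skipping reads. In all 652 events the length correction spans the whole segment, so inclusion reads can also lie inside the segment. Levels carry no replicate number, so values are given in the order of the deposited cell, wild-type first. Over all 652 events the mean level was higher in the mutants in 358 and lower in 294. Many rest on few reads. The median event had 60 reads over the 6 libraries together, 59 events had 5 reads or fewer, and 241 events had at least 1 library with no read at either site.

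Among the events of the sheet, the size of a change went with the number of reads. An event with few reads passes the FDR limit of the sheet only with a large change. The difference in size thus follows at least in part from the choice of events. The median absolute change was 29.9 percentage points in the 485 events under 20 reads in some library, counting those with a level in both groups, and 5.97 points in the 167 events with at least 20 reads in every library. Kdm7aa, which encodes a histone demethylase, has sites 18 bases apart and is an example of a complete switch on few reads. The wild-type libraries had 13, 42 and 14 reads at the downstream site and 0 at the upstream site, and its mutant libraries had 0 at the downstream site and 11, 5 and 1 at the upstream site. The groups did not overlap, but 1 mutant level rests on a single read. Kin, which encodes a DNA- and RNA-binding protein, switched in the same way at sites 18 bases apart, with 2, 2 and 0 wild-type reads downstream and 14, 57 and 18 mutant reads upstream, so here the wild-type levels are the thin ones.

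The rest of the levels described come from the 167 events, in 155 genes, with at least 20 reads in every library, unless a read number says otherwise. The downstream site was used more in the mutants in 99 of them and less in 68. The levels of the 2 groups did not overlap in 68 events (40.7%), of which 41 were higher and 27 lower in the mutants. Over the 1311 events of the 4 sheets with that many reads, these 167 included, the share was 41.7%, so a level without overlap was about as common here as over all sheets. A change of at least 10 points was found in 48 events (28.7%, against 27.8% over the 4 sheets), and a change of at least 20 points in 8. With 3 libraries in each group an exact two-sided permutation test of a single event cannot give a p below 0.10.

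The other event types had changes of like size. The median absolute change was 6.2 points for skipped exons, 5.9 for retained introns and 6.77 for mutually exclusive exons, beside 5.97 here. In 40 of the 167 events the wild-type level was under 0.1, so the downstream site was the minor one. In 37 it was over 0.9, so the upstream site was the minor one, and in 90 both sites were in use.

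**Figure D2:**
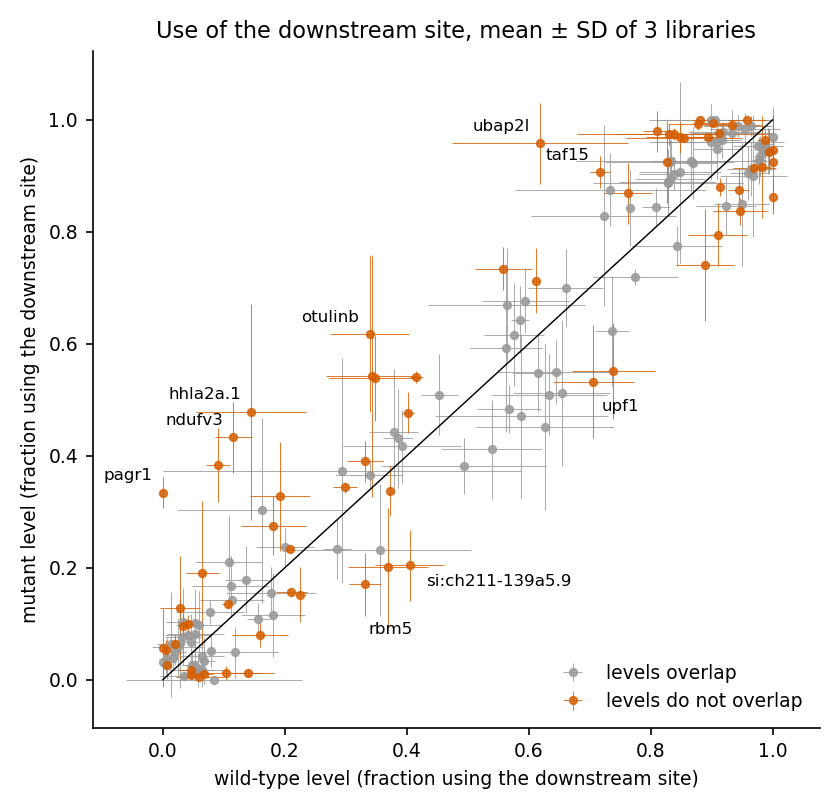
Mean mutant level (vertical axis) against mean wild-type level (horizontal axis), each as the fraction using the downstream 5' splice site, for the 167 events with at least 20 reads in every library. Points are means of 3 libraries with SD bars, orange where the levels of the groups do not overlap (68 events), and the line marks equal levels. Pagr1 and ndufv3 lie far above the line and rbm5 below it.

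By distance, more use of the downstream site in the mutants was the more frequent direction at 31 to 100 bases, with 34 events higher and 17 lower. It was less clear at 10 to 30 bases (26 and 20), 5 to 9 bases (16 and 11) and over 100 up to 300 bases (16 and 13). Sites 4 bases apart went the other way, with 2 higher and 5 lower, on only 7 events. Without the read minimum, 22 of the 39 events at 4 bases were higher and 17 lower. The median absolute change was between 5.55 and 5.77 points from 4 to 100 bases, and 9.23 points over 100 up to 300 bases. Of the distances that are a multiple of 3, 46 events were higher and 40 lower (53.5% higher), and of the others 53 and 28 (65.4% higher). At 50 reads these shares were 51.9% of 52 and 67.6% of 37.

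The largest shifts towards the downstream site were in genes of several kinds, and 2 of the host genes encode proteins of RNA granules and RNA binding. Ubap2l encodes a ubiquitin-associated protein known from human cells as a nucleator of stress granules. Its sites lie 181 bases apart on chromosome 19 (7838726 to 7838906, plus strand, assembly GRCz11), and the wild-type levels were 0.738, 0.660 and 0.458 against 0.874, 1 and 1 in the mutants. The mean change was 33.9 points, from 0.619 ± 0.144 to 0.958 ± 0.073 (SD, n = 3 each), on 29 to 54 reads per library, and the groups did not overlap. Its paralogue ubap2b moved the other way, at sites 31 bases apart on chromosome 8 (45285912 to 45285942, plus strand). Wild-type levels there were 1, 0.917 and 0.925 and mutant levels 0.809, 0.846 and 0.855, a change of -11.1 points without overlap.

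Taf15 encodes an RNA-binding protein of the FET family, and of the 10 largest shifts towards the downstream site it had the most reads. Its sites 36 bases apart on chromosome 15 (1877746 to 1877781, minus strand) had levels of 0.734, 0.717 and 0.701 in wild-type embryos and 0.930, 0.875 and 0.915 in the mutants, on at least 301 reads per library. The upstream site gave 100, 107 and 116 reads in wild-type embryos and 22, 31 and 28 in the mutants, while the site 36 bases downstream gave 342, 336 and 337 against 363, 270 and 375. The change thus lay at the upstream site, whose reads were lower in each mutant library than in any wild-type library. The remaining site, 57 bases downstream of that upstream site, carried most of the reads, between 1333 and 1789 in each library. Measured against it the level went from 0.912 ± 0.008 to 0.976 ± 0.006 (SD, n = 3 each), again without overlap.

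Ndufv3 encodes a subunit of respiratory complex I. A pair of events of this gene share 1 downstream site and differ in the upstream one, 6 or 12 bases away on chromosome 9 (19708242 to 19708247 and 19708236 to 19708247, plus strand). The shared downstream site had 23, 26 and 17 reads in wild-type embryos and 96, 119 and 111 in the mutants. At 12 bases the levels were 0.1, 0.15 and 0.097 against 0.383, 0.505 and 0.410, a change of 31.7 points, and at 6 bases they were 0.094, 0.109 and 0.070 against 0.338, 0.459 and 0.353, a change of 29.2 points. Neither overlapped between groups, and both distances are multiples of 3. The events share the reads of the downstream site, so they are not independent of each other. The same coordinates are listed again in further entries. Those changed by 8.23 points at 12 bases and 6.7 points at 6 bases, with 1 and 0 reads in the library with the fewest.

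Pagr1 encodes a partner of the histone methyltransferase complexes that hold KMT2C or KMT2D in mammals. Its sites lie 20 bases apart on chromosome 12 (3687056 to 3687075, plus strand). The downstream site had 0 reads in each wild-type library, beside about 312, 330 and 332 at the upstream site, and its levels in the mutants were 0.366, 0.326 and 0.311. The mean change was 33.4 points, and the authors' deposited table gives an FDR of 1.19e-88 for it. The mutant counts were 121, 89 and 116 downstream and 185, 162 and 227 upstream. The wild-type upstream counts come from a merged cell that could be parted in more than 1 way, while the levels do not depend on that. Expression of pagr1 itself did not pass the edgeR test, with a log2 fold change of 0.03 ± 0.13 (SE) and an adjusted p of 0.921 after Benjamini-Hochberg adjustment.

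Other large shifts towards the downstream site were in regulators of transcription, transport and ubiquitin. Crebbpb, a histone acetyltransferase, has sites 33 bases apart, and its levels were 0.396, 0.374 and 0.257 in the wild-type libraries against 0.421, 0.793 and 0.414 in the mutants. Its change of 20.03 points rests mostly on 1 mutant library, since the others lie within 0.05 of the highest wild-type level. Carf, a calcium-responsive transcription factor, went from 0.287, 0.324 and 0.433 to 0.529, 0.468 and 0.618 at sites 12 bases apart, without overlap.

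Otulinb, related to a mammalian enzyme that removes linear ubiquitin chains, went from 0.399, 0.347 and 0.271 to 0.769, 0.586 and 0.497 at sites 132 bases apart. Dync1li1, a light intermediate chain of the motor dynein, went from 0.516, 0.609 and 0.550 to 0.693, 0.769 and 0.740 at sites 30 bases apart. Neither gene had overlapping levels, which the choice of these events required. Hhla2a.1, a member of the B7 family of immune ligands in human, changed by 33.3 points at sites 15 bases apart, but its groups only just part, with 0.249 as the highest wild-type level and 0.255 as the lowest mutant level.

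Ribosomal protein genes with such events include rps15a of the small subunit and rpl35a of the large one. Rps15a, with sites 109 bases apart, had levels of 0.816, 0.785 and 0.831 in wild-type embryos and 0.938, 1 and 1 in the mutants, on 26 to 54 reads per library. Rpl35a has 3 sites that form 3 events, 58, 100 and 158 bases apart on chromosome 18 (45784567 to 45784724, plus strand). All 3 were higher in the mutants, by 13.6, 11.6 and 9.23 points, and none overlapped. The 158-base event had 3, 6 and 3 upstream reads in wild-type embryos and 0, 0 and 1 in the mutants. Its change is thus made of few reads at the minor site. The 100-base event shares that upstream site, whereas the 58-base event does not use it. Over the wild-type and mutant libraries, the rps15a event had 108 and 124 reads, beside 52701 and 60229 reads of the gene. The 58-base event of rpl35a had 107 and 221, beside 62953 and 67226. In both genes these levels thus rest on few reads beside those of the gene. Event reads are not simply a part of the gene count. In si:ch211-121a2.2 they exceeded it, with 456 against 397 in the wild-type libraries and 1115 against 994 in the mutants.

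**Figure D3:**
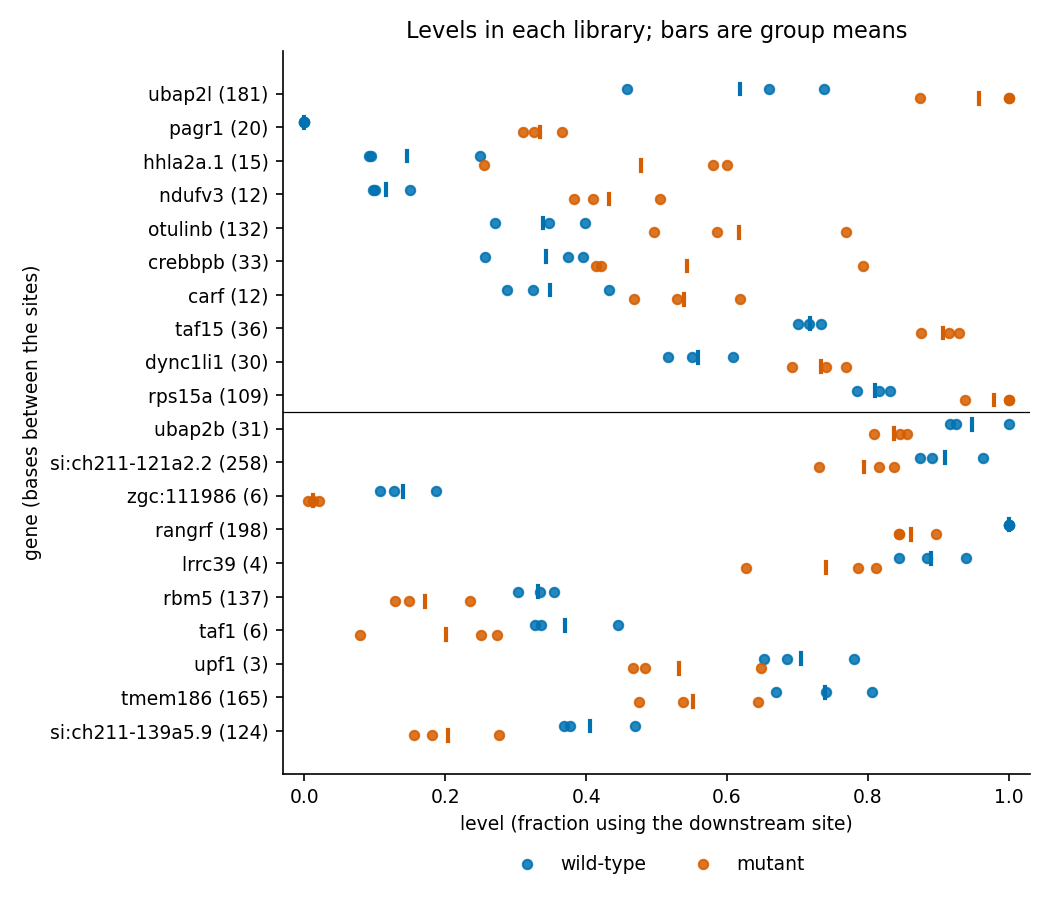
Level in each library (horizontal axis, fraction using the downstream 5' splice site) for the 10 largest shifts towards the downstream site and, under the line, the 10 largest away from it, with 1 event per gene (vertical axis, distance in bases in parentheses). Only events with at least 20 reads in every library and no overlap between the groups were ranked. Dots are libraries, blue wild-type and orange mutant, and vertical ticks are group means. Hhla2a.1 and upf1 are among those whose groups only just part, whereas pagr1 and ndufv3 are wide apart.

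The 10 largest shifts away from the downstream site, again picked only among events without overlap, were smaller. The largest of them was 20.1 points in si:ch211-139a5.9, at sites 124 bases apart, where levels of 0.470, 0.377 and 0.368 in the wild-type libraries stood against 0.181, 0.156 and 0.276 in the mutants. A further pair of sites of this gene, 5 bases apart, changed by -4.83 points, from 0.172, 0.162 and 0.136 to 0.139, 0.103 and 0.083, with an overlap of the groups. Tmem186, known in human as an assembly factor of complex I in mitochondria, went from 0.740, 0.670 and 0.806 to 0.475, 0.644 and 0.537 at sites 165 bases apart. Its levels moved opposite to those of ndufv3, another host gene tied to complex I, and did not overlap between groups.

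Rbm5 encodes an RNA-binding protein that acts in human cells on early splicing complexes. Its sites lie 137 bases apart on chromosome 6 (53276795 to 53276931, minus strand), and levels were 0.303, 0.355 and 0.335 in wild-type embryos and 0.129, 0.235 and 0.148 in the mutants. The mean fell from 0.331 ± 0.026 to 0.171 ± 0.057 (SD, n = 3 each), on at least 97 reads per library. Reads at the downstream site were 46, 58 and 62 against 23, 36 and 29. Every mutant library was below every wild-type library in both measures.

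Upf1 encodes the helicase of nonsense-mediated mRNA decay. Its sites are 3 bases apart on chromosome 2 (56067212 to 56067214, plus strand), so the alternative segment keeps the reading frame where it is coding. Levels of 0.780, 0.652 and 0.685 in the wild-type libraries stood against 0.466, 0.648 and 0.483 in the mutants, a change of -17.3 points in which the closest levels of the groups differ by only 0.004. Taf1, the largest subunit of the general transcription factor TFIID, has sites 6 bases apart and went from 0.445, 0.328 and 0.336 to 0.079, 0.250 and 0.274. The uncharacterised gene zgc:111986, also with sites 6 bases apart, went from 0.187, 0.107 and 0.127 to 0.005, 0.020 and 0.012, on at least 186 reads per library, and its downstream site had 36, 22 and 33 reads in the wild-type libraries against 1, 5 and 4.

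Lrrc39 encodes a protein of the sarcomere's M-band, and its sites are 4 bases apart, the tandem donor spacing, on chromosome 22 (16282703 to 16282706, plus strand). Its levels were 0.844, 0.940 and 0.884 in wild-type embryos and 0.786, 0.627 and 0.811 in the mutants, a change of -14.8 points without overlap. Rangrf encodes a Ran-binding protein that in human also affects traffic of a cardiac sodium channel, and its sites are 198 bases apart on chromosome 5 (53633696 to 53633893, plus strand). The upstream site had 0 reads in all 3 wild-type libraries, beside 29, 28 and 34 downstream, and 6, 5 and 9 reads in the mutants, beside 76 to 113 downstream. Levels were thus 1 in each wild-type library and 0.845, 0.897 and 0.844 in the mutants.

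The event with the most reads was described for each distance class. From 1 to 3 bases it was at a distance of 3, in cirbpb, a cold-inducible RNA-binding protein, with levels of 0.912, 0.827 and 0.806 against 0.957, 0.949 and 1. That event had 153 wild-type and 240 mutant reads, few beside the 154847 and 155489 reads of the gene. From 5 to 9 bases it was at a distance of 5, in elof1, a transcription elongation factor, where levels of 0.866, 0.886 and 0.892 stood against 1 in each mutant library. The upstream site of elof1 had 137, 105 and 112 wild-type reads and 0 in each mutant library, beside at least 804 downstream. Its merged counts too could be parted in more than 1 way, which leaves the levels as they are. For sites 4 bases apart the event with the most reads is that of fen1, given further on.

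Ddx5, an RNA helicase that takes part in U1 release from the donor site, had the most reads at 10 to 30 bases, with sites 13 bases apart on chromosome 3. Levels were 0.115, 0.108 and 0.096 in wild-type embryos and 0.14, 0.139 and 0.127 in the mutants, a change of 2.9 points without overlap on at least 1737 reads per library. Nme2b.1, a nucleoside diphosphate kinase, had the most reads of all, at least 6844 per library, with sites 33 bases apart. Its downstream site is rare, with levels of 0.005, 0.005 and 0.009 against 0.023, 0.029 and 0.029, so the change of 2.07 points is from 47, 42 and 80 reads to 245, 260 and 368.

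Over 100 and up to 300 bases apart, chtopa, a gene of mRNA export, went from 0.060, 0.085 and 0.058 to 0.008, 0.007 and 0.017 at sites 144 bases apart. Trnau1apb, which encodes a protein associated with the selenocysteine tRNA, stands for the longest distances, at 318 bases, and went from 0.204, 0.210 and 0.212 to 0.236, 0.234 and 0.231. In the events of cirbpb, elof1, ddx5, nme2b.1, chtopa and trnau1apb the groups did not overlap.

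Some genes hold several events, which share sites and reads. Eif4e2, a cap-binding protein, has 8 events among sites within 41 bases on chromosome 2, erlin1 has 5, and hnrnpa1b and ndufv3 have 4 each. Among the 652 events 21 downstream sites and 24 upstream sites occur in more than 1 event. In carkd, which encodes a nucleotide repair enzyme, 2 events share a downstream site and moved apart: the level fell by 6.7 points against the site 12 bases upstream and was 6.5 points higher against the site 30 bases upstream. The levels of the 2 groups overlapped in both. In erlin1, a protein of the endoplasmic reticulum, the shared downstream site gained 10.6 points against a site 142 bases upstream, from 0.782, 0.717 and 0.789 to 0.829, 0.930 and 0.847, while it changed by -2.27 points against a site 79 bases upstream.

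Genes of donor site recognition were looked at next, both for events of their own and for expression. The list of the U1 particle and its partners had 19 genes tested, of which 3 hold an event (15.8%). The list of SR proteins, hnRNPs and other splicing regulators that bind RNA had 56 tested, of which 9 hold an event (16.1%), whereas 3.23% of all 16489 genes tested hold one. The median wild-type levels of these lists were 38.9 and 39.8 FPKM, against 4.7 FPKM over all genes tested, and the part of this difference in the shares was not tested. None of the 22 genes of the U5 and U6 step and none of the 7 Sm core genes tested hold an event.

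The 3 events of the U1 list are those of rbm5 and ddx5, given above, and of tial1, an RNA-binding protein that promotes U1 recruitment in human. Tial1, with sites 30 bases apart, had levels of 0.184, 0.070 and 0.079 against 0.217, 0.176 and 0.109, which overlap. The SR and hnRNP list holds 14 events, 4 of them with at least 20 reads in every library. Srsf7a, an SR protein, went from 0.168, 0.060 and 0.097 to 0.305, 0.172 and 0.155 at sites 110 bases apart. Qkia and celf2 changed by 5.63 and 3.87 points, and hnrnpaba by -8.33 points. In each of these 4 the levels overlapped, and the change of hnrnpaba came from 1 wild-type library at 0.250 with the other 5 at 0. In hnrnpa1b, with 4 events, the reads themselves were uneven: the downstream site of its 12-base event had 32, 18 and 21 wild-type reads and 0 in each mutant library, where the upstream site had 0, 0 and 2.

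That last pattern was looked at over all events with at least 200 reads. The reads at both sites, that is all inclusion and skipping reads of the event, were compared with the reads of the whole gene. Over these 179 events the mutant to wild-type ratio of the reads at the sites differed from that of the gene by a median of 0.003 on the log2 scale, with quartiles at -0.193 and 0.246. In 5 events the sites had lost more than 1.5 log2 units beyond the gene and in 1 event they had gained that much. In such an event the level of 1 group rests on far fewer reads than that of the other.

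Fen1, the flap endonuclease of DNA replication, has sites 4 bases apart on chromosome 24 (11768441 to 11768444, plus strand). The reads at both sites together were 224, 278 and 327 in wild-type embryos and 7, 2 and 3 in the mutants, whereas the gene as a whole had 8688 and 7279 reads in the 2 groups. The levels of 0.913, 0.835 and 0.865 against 1 in each mutant library therefore compare at least 224 reads with at most 7. Expression of the fen1 gene did not pass the edgeR test, with a log2 fold change of -0.29 ± 0.12 (SE) and an adjusted p of 0.127 after Benjamini-Hochberg adjustment.

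Tssc4 encodes a factor known in human for assembly of the U5 particle, and it has 3 events, of which that at 17 bases has at least 200 reads. At the sites 17 bases apart the reads were 112, 103 and 125 in wild-type embryos and 0, 0 and 6 in the mutants. Its wild-type levels there were even, at 0.247, 0.242 and 0.244, and 2 of the mutant libraries have no level at all. Its gene counts fell by less, with a log2 fold change of -0.58 ± 0.13 (SE) and an adjusted p of 0.0108 by edgeR with Benjamini-Hochberg adjustment.

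Znf593, a zinc finger gene linked to ribosome assembly, has sites 61 bases apart on chromosome 17 (24666448 to 24666508, plus strand). Reads at both sites were 239, 202 and 239 in wild-type embryos and 2, 33 and 4 in the mutants, and the gene had 1605 and 1065 reads in the 2 groups. The mutant reads in the library with 33 were split 1 to 32 between the downstream and the upstream site. Gene counts of znf593 fell, with a log2 fold change of -0.63 ± 0.11 (SE) and an adjusted p of 0.00146 by edgeR with Benjamini-Hochberg adjustment.

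The other 3 events of this kind were less even within groups or went up. Si:dkey-26g8.5 had 0, 725 and 41 reads at its sites in wild-type embryos and 3, 1 and 4 in the mutants. Si:ch73-1a9.3 had 169, 2 and 2 against 24, 12 and 16, so a single wild-type library made the difference. Ngs had 31, 38 and 19 against 103, 160 and 140, an increase in every mutant library over every wild-type library. Which exons carry the remaining reads of these genes was not analysed here.

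**Figure D4:**
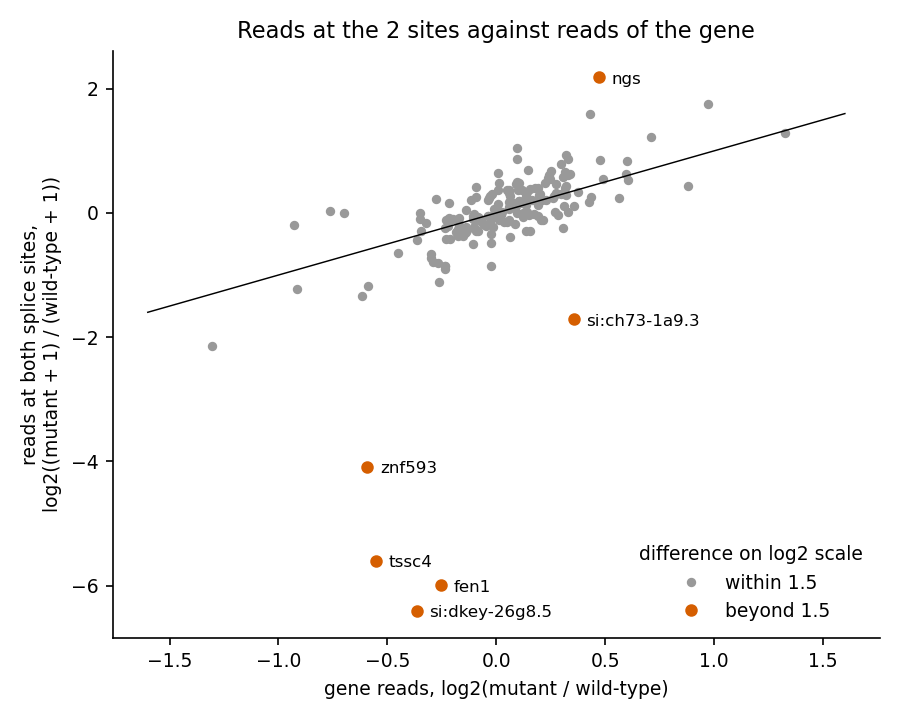
Change of the reads at both 5' splice sites, inclusion and skipping reads together (vertical axis, log2 of mutant over wild-type reads with 1 added to each), against change of the reads of the whole gene (horizontal axis, log2 of mutant over wild-type reads), for the 179 events with at least 200 reads. Points are events, the line marks equal change, and orange points lie more than 1.5 log2 units from it. Fen1, tssc4, znf593 and si:dkey-26g8.5 lie far below the line and ngs above it.

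The host genes were tested for expression, which the sheet did not use as such. Of the 567 host genes 532 passed the minimum of 0.5 FPKM, and 74 of these were called (13.9%), with 34 higher and 40 lower in the mutants. Over all 16489 genes tested 14.2% were called, with 6.71% higher and 7.48% lower, so host genes were called about as often as all genes. The counts hang on single libraries: without mutant replicate 2, 189 host genes (35.5%) and 29.3% of all genes were called, and without wild-type replicate 3, 47 host genes (8.83%) and 8.29% of all genes. Their median log2 fold change was 0.003, against -0.002 over all genes tested. Of the 155 host genes with an event at 20 reads in every library, 17 were called (11%). In 140 host genes a skipped exon, retained intron or mutually exclusive exon event is listed as well.

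The host genes with the largest changes in expression mostly had thin events. Ddx4, the germ cell helicase known as vasa, had 1.14, 1.15 and 1.5 FPKM in wild-type embryos and 0.17, 0.22 and 0.28 FPKM in the mutants, with a log2 fold change of -2.42 ± 0.33 (SE) and an adjusted p of 0.000256 by edgeR with Benjamini-Hochberg adjustment. Its event has 8 reads over the 6 libraries. Thrb, a thyroid hormone receptor, fell with a log2 fold change of -1.87 ± 0.27 (SE) and an adjusted p of 0.000503 by the same test, and its event has 14 reads. The largest fall of all was in the gene with identifier ENSDARG00000069978, from 1.52, 2.52 and 2.4 FPKM to 0, 0 and 0.12 FPKM.

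The genes zgc:100832 and si:ch211-244h7.2 fell by 2.62 and 1.78 on the log2 scale (adjusted p of 0.00133 and 0.0324 by edgeR with Benjamini-Hochberg adjustment). The call of si:ch211-244h7.2 did not hold when any 1 of 4 libraries was left out, with an adjusted p between 0.059 and 0.194. Both are named only by clone or project identifiers.

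Caprin2 encodes an RNA-binding protein that takes part in lens development and has 2 events, of sites 60 and 81 bases apart. It rose from 0.42, 0.28 and 0.48 FPKM to 1.05, 1.76 and 1.18 FPKM, with a log2 fold change of 1.79 ± 0.29 (SE) and an adjusted p of 0.00104 by edgeR with Benjamini-Hochberg adjustment. In the wild-type libraries its 60-base event had 3, 3 and 1 reads, all at the downstream site, so its levels there cannot be read closely. Ftr51 and sult1st4, a finTRIM gene and a sulfotransferase gene, rose by 1.45 and 1.12 on the log2 scale, with 57 and 119 reads at their events.

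Of the 10 host genes with the largest changes in expression, rangrf and si:ch211-121a2.2 also have an event with at least 20 reads in every library and no overlap between the groups. Rangrf, whose 198-base event is given above, rose from 5.83, 5.33 and 6.13 FPKM to 10.15, 11.33 and 10.42 FPKM, with a log2 fold change of 0.93 ± 0.15 (SE) and an adjusted p of 0.000996 by edgeR with Benjamini-Hochberg adjustment. A further rangrf event, of sites 119 bases apart, changed by 100 points towards the downstream site, but it has 22 reads in total and a library without reads. Si:ch211-121a2.2 rose from 4.22, 4.69 and 6.44 FPKM to 14.92, 12.93 and 8.93 FPKM, with a log2 fold change of 1.31 ± 0.20 (SE) and an adjusted p of 0.000804 by the same test. Its sites lie 258 bases apart, and its levels fell from 0.874, 0.964 and 0.891 to 0.837, 0.731 and 0.816.

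Few genes of the recognition machinery were called. None of the 19 genes of the U1 list and none of the 7 Sm core genes were called by edgeR or by DESeq2. An unadjusted p under 0.05 by edgeR was found in 4 of the 19 and 0 of the 7. The share of all genes under that unadjusted limit was not counted, so these counts cannot be called high or low. It is at least the 14.2% called after adjustment. Of the 22 genes of the U5 and U6 step aqr and cdc5l rose, by 0.44 ± 0.13 and 0.38 ± 0.11 on the log2 scale (SE; adjusted p of 0.0351 and 0.0318, Benjamini-Hochberg adjustment). Both calls were lost in 5 of the 6 fits that leave out 1 library, all but that without mutant replicate 2, with an adjusted p between 0.0661 and 0.151 for aqr and between 0.09 and 0.136 for cdc5l by edgeR. Aqr encodes a helicase that binds introns in the spliceosome and cdc5l a partner of PRP19. Of 56 SR protein and hnRNP genes 1 rose, rbm24a itself, and 3 fell. These were hnrnpua at -0.71, the copy of hnrnpa0a with identifier ENSDARG00000105465 at -0.73 and srsf1b at -0.47 on the log2 scale. That copy of hnrnpa0a had a mean of 14.7 FPKM in wild-type embryos. The other copy, at 182 FPKM, was not called, with a log2 fold change of 0.11 and an adjusted p of 0.629 by edgeR with Benjamini-Hochberg adjustment. The call of srsf1b was lost in 3 of the 6 fits that leave out 1 library, with an adjusted p of up to 0.0899 by edgeR. The U1, U5 and U6 and Sm lists together thus had 2 of 48 genes called (4.17%) and the SR protein and hnRNP list 4 of 56 (7.14%), against 14.2% of all genes. Without mutant replicate 2 the order turned, with 19 of the 48 (39.6%) and 21 of the 56 (37.5%) called against 29.3% of all genes. With any other library left out, 0 or 1 of the 48 and 3 or 4 of the 56 were called.

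Muscle and lens genes were set beside the events because the mutated gene and the series title point to these tissues. Of 75 muscle and heart genes tested 11 rose and 6 fell (22.7% called, against 14.2% of all genes), with a median log2 fold change of 0.21. Of these 75 genes 1 holds an alternative 5' splice site event (1.33%, against 3.23% of all genes). That gene is atp2a1, the calcium pump of fast muscle, whose event has 5 reads although the gene had 279 ± 43 FPKM in the wild-type libraries (SD, n = 3). The share describes the listed genes only. Muscle genes outside the list, such as lrrc39 given above, tnni1c and myoz1b, also hold events. Of 27 lens genes tested 1 rose and 16 fell (63% called), with a median log2 fold change of -0.84, and caprin2 is the 1 with an event (3.7%). Without mutant replicate 2, 26 of the muscle and heart genes rose and 10 fell (48%), and of the lens genes 2 rose and 18 fell (74.1%), against 29.3% of all genes.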

How the data were processed

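Per the labels' protocols, Trizol-extracted RNA went into TruSeq libraries that were sequenced as 100 bp paired ends on an Illumina HiSeq. The submitters' processing notes name the assembly GRCz11 and, among tools, HISAT2 2.0.1 and HTSeq 0.6.1, without role or order. The tool behind the splicing sheets, and whether gene counting used strand, is not stated in the sources used here.

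The authors deposited read counts and FPKM per gene, with FPKM scaled to gene length and library total. For each event the authors deposited inclusion levels (a fraction from 0 to 1), inclusion and skipping read counts, a score for the difference of levels, and a p-value with its FDR. In 109 of 2608 count cells the 3 counts ran together as 1 number. They were parted so as to give back the levels within 0.00051, and 8 events had more than 1 reading, of which the most even was taken. On 1000 simulated cells this recovered 1000. None of those had more than 1 reading, so the choice among several readings was not tested. The sample named earlier in the comparison's name was taken as wild-type. As a check, in 17 of 19 genes with at least 100 event reads and a 1.5-fold change in gene counts, the event reads changed in the same direction. Distance is the long minus the short exon length.

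The gene counts went into edgeR 4.0.16 (R 4.3.3) with TMM scaling. Its two-sided quasi-likelihood test was adjusted by Benjamini-Hochberg over the 16489 genes whose mean reached 0.5 FPKM, at a threshold of 0.05. DESeq2 1.42.0 was an alternative. Tested on counts simulated for this comparison over 16489 genes, edgeR called 15 of the 50 simulated 1.5-fold changes, 43 of the 50 at 2-fold, all 50 at 4-fold and all 50 at 8-fold. The changed genes were drawn only from those above a minimum mean count, so recovery in genes with few reads was not tested. It also called 7 of 16289 unchanged genes. The labels call the samples independent without naming clutches, so p-values measure the spread between these samples. Near-identical or overlapping genes are uncertain.

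The events named are the 10 largest shifts each way, 1 per gene, among those with at least 20 reads in every library and no overlap between groups, the event with the most reads in each distance class, those of listed genes at 20 reads, and those of the 5 host genes with the largest change in expression each way. Others (kdm7aa, kin, rpl35a, carkd, erlin1, eif4e2, hnrnpa1b and the events whose reads departed from the gene) were chosen after their values were seen. The events and gene lists were chosen with earlier results of these data known. The sheet of alternative 3' splice sites and the authors' list of changed genes were not analysed here.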

Additional observations from a re-analysis of the deposited data

How the results depend on the processing

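The share of events higher in the mutants (59.3% of 167) was between 54.9% and 65.2% under the other read minima, stricter FDR limits, 1 event per gene and pooled reads, and between 57.5% and 59.3% with 1 level of a group left out. The share at a multiple of 3 (51.5%) was between 49.1% and 58.4%. The share whose levels do not overlap (40.7%) was 18.4% with no read minimum, 51.7% at 50 reads, 68.8% among changes of at least 10 points and 49.1% at an FDR under 0.001 in the authors' deposited table. With no read minimum, the 241 events with a library without reads lack a level and were counted as overlapping, which lowers that share by construction. A limit on the size of the change favours levels without overlap. With 1 level left out the share was between 47.3% and 54.5%, as fewer values overlap less often by construction.

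The 74 host genes called became 47 to 189 with 1 library left out (47 without wild-type replicate 3, 189 without mutant replicate 2). In the same fits the 2 recognition genes called became 0 to 19 and the 4 SR protein and hnRNP genes 3 to 21. With no expression filter 4 of 48 recognition genes were called, against 12.2% of all genes, and at 5 FPKM 7 of 45, against 18.1%. Causes of these differences were not tested. Deviations from the group means correlated at 0.174, 0.305 and 0.051 between same-numbered libraries of the groups. For replicates 1 and 2 the same-numbered library was the best match, and replicate 2 libraries correlated with other numbers at -0.283 to -0.114. Mutant replicate 3 correlated at 0.076 with wild-type replicate 1, above its own number. The labels name no pairs, so the main fit used none, and whether the numbers pair the libraries is not settled. With the replicate number as a block, 121 host genes (22.7%), 8 recognition genes (16.7%) and 8 SR protein and hnRNP genes (14.3%) were called, against 20.5% of all genes. Of 320 values of single genes and events under the alternatives, 316 kept their direction and side of the threshold, and 4, all of si:ch211-244h7.2, kept the direction and lost the call. The 320 do not cover aqr, cdc5l and srsf1b, which lost their calls in 5, 5 and 3 of the 6 fits that leave out 1 library. The planned reading of donor site sequences was not run, because no genome of the files' build was used here. Depth limits the 485 events under 20 reads in a library.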
